A study of Mus musculus with 8 samples.

Results

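The genes described here are 10 genes of the antioxidant and glutathione program of the transcription factor NRF2: *Nfe2l2*, *Keap1*, *Slc7a11*, *Gclc*, *Gclm*, *Gsr*, *Txnrd1*, *Srxn1*, *Prdx1* and *Nqo1*. They were chosen by gene symbol, as 10 of the 55401 genes in the deposited count table, and all 10 were among the 15202 genes with at least 0.5 CPM (counts scaled to a library total of 1000000) in at least 1 library, which were tested. RNA had been sequenced from hepatic macrophages in 8 libraries, 2 for each of 4 groups. The libraries labelled normal came from livers of wild-type C57BL/6J mice on a standard diet. The libraries labelled steatotic came from livers of MC4R-KO mice, which lack the melanocortin 4 receptor, on the same strain background after 6 to 10 wk of a Western diet. Macrophages of both kinds of liver had been separated with antibodies to F4/80 on magnetic columns, seeded on collagen-coated plates and cultured there for 24 h, either in vehicle (Veh) or in the presence of 500 μg/ml of cholesterol crystals (CC), which are ingested into lysosomes. Genotype and diet changed together between the labels, so their effects cannot be told apart. The wild-type mice were matched in age per the study's methods, which give a starting age for a longer diet, but the ages at which these macrophages were taken, and whether a library held cells of 1 or several animals, are not given in the sources used here, so p-values measure only the spread between these libraries, which may be technical.

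NRF2, encoded by *Nfe2l2*, is held at a low level by KEAP1, an adaptor that presents it for ubiquitination. When oxidants or electrophiles modify cysteines of KEAP1, NRF2 escapes degradation, pairs with a small MAF protein and binds antioxidant response elements near genes that supply glutathione, thioredoxin and detoxifying enzymes. Because this control acts largely on the protein, the mRNA of *Nfe2l2* itself need not follow NRF2 activity. Macrophages make oxidants with their NADPH oxidase and use these genes to limit the damage.

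The knocked-out gene, *Mc4r*, was at 0 counts in all 4 libraries labelled normal and at 22 to 72 counts in the 4 labelled steatotic. This goes against the labels, unless reads can still come from the knockout allele. The study also measured genes of such macrophages by other methods, which were not used here, and no other gene served as a check of the labels. Directions between the livers are given as labelled. Library totals were 58668655 to 74529462 counts. None of the 9 macrophage markers was at 0 in any library. They ranged from *Timd4*, at 3.48 to 18.3 CPM, to *Lyz2*, at 3429 to 8228 CPM, and their summed level was 17334 to 17891 CPM with the label normal and Veh, 13434 to 13762 CPM with CC, 14814 to 15218 CPM with the label steatotic and Veh, and 11145 to 12445 CPM with CC. With CC, 7 of these 9 markers fell with each label, against 5.54% and 10.9% of all tested genes. With the label steatotic 1 rose, *Cd68*, at 0.17 on the log2 scale (adjusted p = 0.0147). At Veh, 5 of the 9 were higher with the label steatotic and 3 lower (16.4% and 14.3% of all tested genes), although the sum was lower. *Lyz2* and *Cd68*, at -1.16 and -0.74, were among the lower and *C1qa* and *Adgre1*, at 1.39 and 0.74, among the higher. Other cell types left lower sums. The 8 markers of T or NK cells summed to 2.95 to 5.72 CPM with the label normal and 46.3 to 66.5 CPM with the label steatotic, the 6 of sinusoidal endothelial cells to 118 to 152 CPM and 216 to 238 CPM, and the 13 of hepatocytes to 126 to 168 CPM and 48.8 to 120.4 CPM. Among the endothelial markers at Veh, *Dnase1l3* averaged 5.63 CPM with the label normal and 90.1 CPM with the label steatotic. *Stab2* was lower with the label steatotic there, at -0.33 on the log2 scale (adjusted p = 0.0130). *Trf* made up most of the hepatocyte sum, at 45.9 to 117.7 CPM, and its difference between the labels at Veh was 0.22 on the log2 scale (adjusted p = 0.0974). Of the 10 tested hepatocyte markers, 6 were lower there with the label steatotic, against 14.3% of all tested genes, and none was higher. *Alb* was at 41.0 to 49.4 CPM with the label normal and at 1.24 to 2.31 CPM with the label steatotic. The 7 stellate cell markers summed to 108 to 136 CPM in the libraries labelled steatotic with CC and to 2.92 to 21.2 CPM in the other libraries, of which *Dcn* alone gave 107.9 to 135.0 CPM and 2.07 to 20.8 CPM. The other 6 stellate cell markers were at most at 0.425 CPM in any library and were not tested. Of 6 neutrophil markers, summing to 4.59 to 19.5 CPM, *Ly6g* was at 0 throughout and *S100a8*, at 4.29 to 19.2 CPM, gave nearly all of the sum. *S100a8* was the only 1 tested and rose with CC, by 0.66 and 1.97 for the labels normal and steatotic (adjusted p = 0.0145 and 4.02e-05). The sums over all libraries were 0.854 to 2.88 CPM for 4 B cell, 5.65 to 13.7 CPM for 4 cholangiocyte and 4.12 to 9.28 CPM for 5 dendritic cell markers. The part of these cells in the results below was not tested.

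Of the 10 genes, 8 have a promoter window in the RefSeq table used (GRCm38.p6, 250 bases before to 50 bases after a start site), and stretches of 4 of these windows are printed here, 3 for the letters of the element that NRF2 binds and that of *Srxn1* for letters of the AP-1 site. The core TGACNNNGC, in which N is any base, was searched on both strands. It was found in the windows of 5 genes, *Nfe2l2*, *Gclm*, *Prdx1*, *Txnrd1* and *Srxn1*, and in those of 13.991% of all 27025 genes in the table. The matches of *Nfe2l2* and *Srxn1* lie outside the stretches shown. The windows of *Slc7a11*, *Nqo1* and *Keap1* did not hold these letters, which says nothing of sites further away. In the first 3 lines the capitals mark the core, read on the minus strand, at positions -134 to -126, -133 to -125 and -92 to -84 from the start site, the first transcribed base being 1. For *Txnrd1* this holds for 1 of its 3 start sites in the table.

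*Gclm* (chr3:122245393-122245461, plus strand): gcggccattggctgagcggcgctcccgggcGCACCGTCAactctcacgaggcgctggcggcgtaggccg

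*Prdx1* (chr4:116685436-116685504, plus strand): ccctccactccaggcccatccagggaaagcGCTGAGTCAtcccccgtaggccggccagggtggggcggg

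*Txnrd1* (chr10:82859084-82859152, plus strand): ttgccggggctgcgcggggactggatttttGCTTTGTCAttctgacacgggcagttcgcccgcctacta

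*Srxn1* (chr2:152105392-152105515, plus strand): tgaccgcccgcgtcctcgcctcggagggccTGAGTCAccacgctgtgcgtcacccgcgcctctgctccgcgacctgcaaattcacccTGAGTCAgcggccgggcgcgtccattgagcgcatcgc

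In the *Srxn1* line the capitals mark TGACTCA, the site of AP-1 factors, read on the minus strand from positions -102 and -45, while its core match lay after the start site, at positions 29 to 37. TGACTCA was in the windows of 5.946% of genes and of *Prdx1* and *Srxn1* among the 8. The match of *Prdx1* spells TGACTCAGC, which holds both the AP-1 site and the core and occurred in the windows of 0.503% of genes. A match is a description of the letters and not evidence of binding.

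With CC, 6 of the 10 genes rose with the label normal and 8 rose with the label steatotic, and none fell with either label. *Slc7a11*, the cystine transporter, rose 2.04-fold with the label normal, as did *Srxn1*, and 7.81-fold with the label steatotic, the largest rise of the 10 genes there. At Veh, 7 of the 10 genes were lower in the libraries labelled steatotic, by 1.16-fold for *Nfe2l2* up to 3.38-fold for *Nqo1*, and none was higher. Calls were made with edgeR's quasi-likelihood test at a Benjamini-Hochberg adjusted p-value under 0.05 over all tested genes. Over all tested genes, 6.27% rose and 5.54% fell with CC and the label normal (11.8% in all), 12.0% rose and 10.9% fell with CC and the label steatotic (22.9% in all), and 16.4% were higher and 14.3% lower with the label steatotic at Veh (30.7% in all). In bulk RNA, fewer cells of a type and less RNA per cell cannot be told apart.

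**Figure D1:**
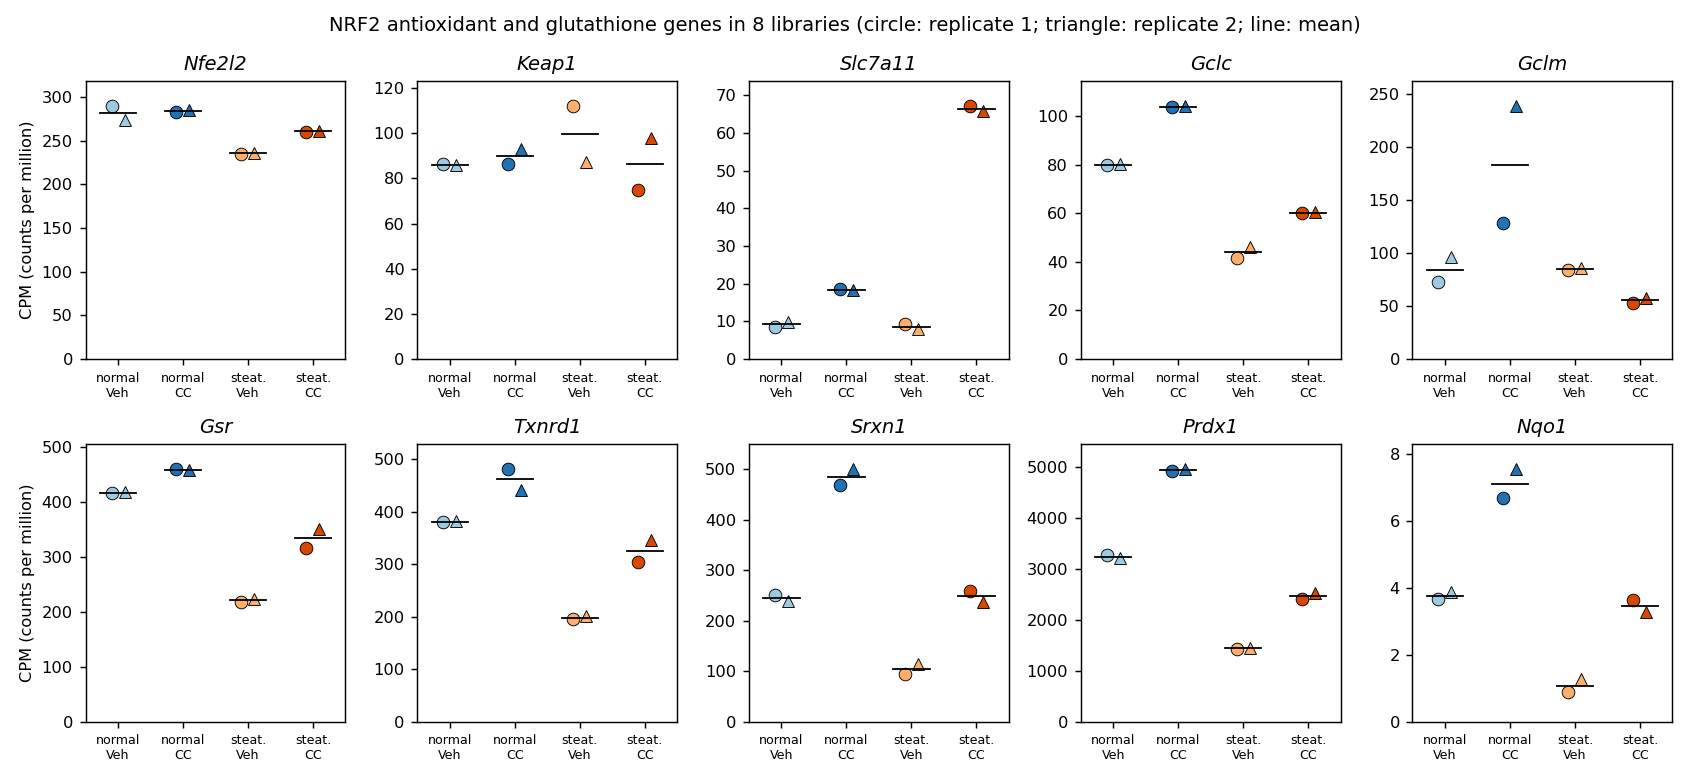
Level of each of the 10 genes in CPM (vertical axes, each starting at 0) in the 8 libraries, by label and treatment. Circles are replicate 1, triangles replicate 2 and lines the means of 2 libraries. *Slc7a11* stood at 65.8 and 67.0 CPM in the libraries labelled steatotic with CC and below 20 CPM elsewhere, and the 2 libraries labelled normal with CC differed most for *Gclm*, at 128.3 and 238.1 CPM.

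Among the regulators, *Nfe2l2* (chromosome 2, 75675513 to 75704641, minus strand, GRCm38) varied little. It measured 289.5 and 274.2 CPM with the label normal and Veh, 282.7 and 284.9 CPM with the label normal and CC, 235.0 and 235.9 CPM with the label steatotic and Veh, and 260.5 and 261.7 CPM with the label steatotic and CC. The 4 libraries labelled normal lay above the 4 labelled steatotic, without overlap. With the label steatotic, *Nfe2l2* rose 1.12-fold with CC, or 0.17 ± 0.04 on the log2 scale (SE, adjusted p = 0.0171), and the adjusted p-value ran from 0.0580 to 0.0917 when any 1 of the 4 libraries labelled steatotic was left out. With the label normal its log2 fold change was 0.05 (95% confidence interval -0.04 to 0.13, adjusted p = 0.515). At Veh the gene differed between the labels by -0.21 ± 0.04 on the log2 scale (steatotic lower, adjusted p = 0.00420), and with CC the difference was -0.09 (adjusted p = 0.108).

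*Keap1* (chromosome 9, 21229730 to 21239361, minus strand) lay between 74.8 and 111.9 CPM in all 8 libraries. The highest and the lowest value were both from libraries labelled steatotic, where replicates differed by 1.29-fold with Veh and 1.31-fold with CC. No comparison of *Keap1* passed the test, with log2 fold changes for CC of 0.10 (95% confidence interval -0.31 to 0.51) and -0.19 (-0.59 to 0.22) for the labels normal and steatotic. It shares 510 exonic bases with *Gm16754* on the other strand, which had 93 to 185 counts per library, and whether the counting used strand is not given in the sources used here.

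Of the genes for glutathione, *Slc7a11* (chromosome 3, 49892526 to 50443614, minus strand) encodes the light chain of the transporter that imports cystine in exchange for glutamate. Its level was 8.56 and 9.91 CPM with the label normal and Veh, 18.5 and 18.3 CPM with CC, 9.29 and 7.91 CPM with the label steatotic and Veh, and 67.0 and 65.8 CPM with CC. With Veh the ranges of the 2 labels overlapped, whereas with CC they stood 3.68-fold apart. The CC response was 1.03 ± 0.10 (SE, log2 fold change, adjusted p = 7.96e-04) with the label normal and 2.97 ± 0.11 (adjusted p = 3.16e-06) with the label steatotic. The difference between these responses was 1.93 ± 0.15 on the log2 scale (adjusted p = 0.00153), or 3.82-fold. Over all tested genes, 3.22% differed in their CC response between the labels, 1.95% with the higher response under the label steatotic, as did 2 of the 10 genes, *Slc7a11* and *Gsr*. The partner chain of the transporter, *Slc3a2*, rose with CC by log2 fold changes of 0.49 (adjusted p = 0.00811) and 0.47 (adjusted p = 0.00470), and its responses differed by -0.02 (adjusted p = 0.972).

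*Gclc* and *Gclm* encode the catalytic and the modifier subunit of glutamate-cysteine ligase, the enzyme of the rate-limiting step of glutathione synthesis. *Gclc* (chromosome 9, 77754535 to 77794485, plus strand) measured 80.0 and 80.3 CPM with the label normal and Veh, 103.7 and 104.1 CPM with CC, 41.6 and 46.3 CPM with the label steatotic and Veh, and 60.2 and 60.4 CPM with CC. The 4 groups did not overlap. It rose with CC by log2 fold changes of 0.41 ± 0.06 (adjusted p = 0.00333) and 0.47 ± 0.06 (adjusted p = 8.01e-04) for the labels normal and steatotic, which differed by 0.06 (95% confidence interval -0.13 to 0.25). Its log2 fold change between the labels was -0.82 ± 0.06 at Veh (steatotic lower, adjusted p = 3.56e-05) and -0.76 ± 0.06 with CC (adjusted p = 6.10e-05).

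*Gclm* (chromosome 3, 122245557 to 122270732, plus strand) lay in another order over the groups than its partner, though its responses were not compared with those of *Gclc* in a test. It measured 72.4 and 95.9 CPM with the label normal and Veh, 128.3 and 238.1 CPM with CC, 84.3 and 85.9 CPM with the label steatotic and Veh, and 52.9 and 57.8 CPM with CC. Both libraries with CC lay above those with Veh for the label normal, and below them for the label steatotic. Neither response passed the test, at log2 fold changes of 1.16 ± 0.32 (adjusted p = 0.09997) and -0.60 ± 0.32 (adjusted p = 0.276), and nor did their difference of -1.76 ± 0.46 (adjusted p = 0.172). The 2 libraries labelled normal with CC differed by 1.86-fold. Without the first of them, at 128.3 CPM, the response with the label normal was 1.54 (adjusted p = 0.00912) and the difference -2.14 (adjusted p = 0.0223), and without the second the response was 0.64 (adjusted p = 0.0973) and the difference -1.25 (adjusted p = 0.0727). Under DESeq2 in place of edgeR, with all 8 libraries, the response with the label normal was 1.16 (adjusted p = 0.00674) and the difference -1.77 (adjusted p = 0.00763). With only the 4 libraries labelled steatotic in the fit, the response of -0.60 there had an adjusted p-value of 0.00162, and it was 0.0378 and 0.0363 without the first and the second library labelled normal with CC. *Gclm* shares 296 exonic bases with *Gm17494* on the other strand, whose counts were 4192 and 4394, 2613 and 1392, 1397 and 1219, and 979 and 3382 in the same order of groups, and its part in these values was not tested. With CC, *Gclm* was lower with the label steatotic, at -1.70 ± 0.33 on the log2 scale (adjusted p = 0.0189), which missed the threshold without either library labelled steatotic with CC (adjusted p = 0.103 and 0.0933), without the filter on low counts (adjusted p = 0.0507) and with the 4 libraries with CC fitted alone (adjusted p = 0.102).

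*Gsr* (chromosome 8, 33652523 to 33698163, plus strand), glutathione reductase, returns oxidized glutathione to its reduced form with NADPH. It measured 415.1 and 417.1 CPM with the label normal and Veh, 459.4 and 457.6 CPM with CC, 218.0 and 223.9 CPM with the label steatotic and Veh, and 315.9 and 350.3 CPM with CC. The groups did not overlap, and the libraries labelled steatotic with CC stayed below all those labelled normal. CC raised it with the label steatotic, by 0.61 ± 0.05 on the log2 scale (adjusted p = 1.09e-04). With the label normal the value was 0.18 ± 0.05 (adjusted p = 0.0622), which passed the threshold when the 4 libraries labelled normal were fitted alone (adjusted p = 0.0226) and without either library labelled steatotic with CC (adjusted p = 0.0171 and 0.0174). The responses differed by 0.43 ± 0.07 (adjusted p = 0.0189), and this adjusted p-value ran from 0.0566 to 0.0768 when any 1 library other than those labelled steatotic with CC was left out. At Veh *Gsr* was lower with the label steatotic by -0.87 ± 0.05 (log2 fold change, adjusted p = 1.48e-05).

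**Figure D2:**
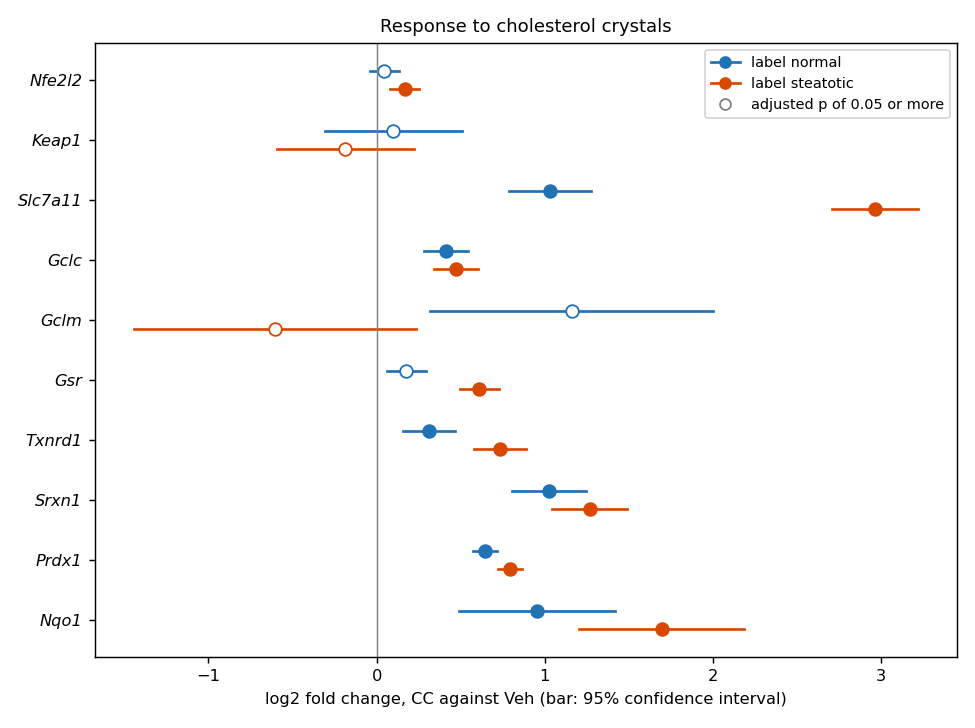
Log2 fold change of CC against Veh for the 10 genes (horizontal axis) in the libraries labelled normal (blue) and steatotic (orange), with 95% confidence intervals from the edgeR fit as bars and open circles where the adjusted p-value was 0.05 or more. *Slc7a11* lay at 1.03 and 2.97, and the widest intervals were those of *Gclm*, around 1.16 and -0.60.

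Of the thioredoxin branch, 3 genes were among the 10, and each of them rose with CC under both labels. *Txnrd1*, thioredoxin reductase, keeps thioredoxin reduced, *Prdx1* is a peroxiredoxin that removes hydrogen peroxide with electrons from thioredoxin, and *Srxn1*, sulfiredoxin, restores peroxiredoxins that have been overoxidized. *Txnrd1* (chromosome 10, 82833951 to 82897712, plus strand) measured 380.0 and 382.0 CPM with the label normal and Veh, 481.1 and 441.6 CPM with CC, 195.7 and 200.4 CPM with the label steatotic and Veh, and 303.9 and 346.8 CPM with CC. Its groups did not overlap. It rose with CC by log2 fold changes of 0.31 ± 0.07 (adjusted p = 0.0220) and 0.73 ± 0.07 (adjusted p = 1.91e-04). The smaller of these, with the label normal, missed the threshold when either library with Veh or the first with CC was left out (adjusted p = 0.0922 to 0.124). The difference of 0.42 ± 0.09 between the responses did not pass the test (adjusted p = 0.0634), but did under DESeq2 (adjusted p = 0.0109), without the filter on low counts (adjusted p = 0.0322) and without the first library labelled steatotic with CC (adjusted p = 0.0222).

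*Srxn1* (chromosome 2, 152105516 to 152111376, plus strand) measured 250.1 and 238.2 CPM with the label normal and Veh and 469.4 and 500.6 CPM with CC. With the label steatotic it measured 94.8 and 113.9 CPM with Veh and 259.4 and 236.9 CPM with CC. The libraries labelled steatotic with CC overlapped those labelled normal with Veh, at a ratio of the means of 1.02. Its CC responses were 1.03 ± 0.09 (log2 fold change, adjusted p = 8.12e-04) and 1.27 ± 0.09 (adjusted p = 1.31e-04), with a difference of 0.24 (95% confidence interval -0.07 to 0.55, adjusted p = 0.486). At Veh it was lower with the label steatotic by -1.18 ± 0.09 (adjusted p = 1.28e-04).

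*Prdx1* (chromosome 4, 116685544 to 116700822, plus strand) was the most abundant of the 10 genes, also per kilobase of exon. It measured 3279 and 3211 CPM with the label normal and Veh, 4933 and 4965 CPM with CC, 1438 and 1450 CPM with the label steatotic and Veh, and 2416 and 2524 CPM with CC. Replicates differed by at most 1.04-fold and the groups did not overlap. CC raised it by log2 fold changes of 0.65 ± 0.03 (adjusted p = 3.44e-05) and 0.79 ± 0.03 (adjusted p = 3.48e-06), which differed by 0.15 (adjusted p = 0.153). It was lower with the label steatotic by -1.12 ± 0.03 at Veh (adjusted p = 5.79e-07) and -0.98 ± 0.03 with CC (adjusted p = 1.25e-06).

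*Nqo1* (chromosome 8, 107388225 to 107403206, minus strand), a quinone reductase often used as a readout of NRF2, was rare in these cells. It measured 3.65 and 3.88 CPM with the label normal and Veh, 6.68 and 7.55 CPM with CC, 0.878 and 1.28 CPM with the label steatotic and Veh, and 3.63 and 3.29 CPM with CC. The libraries labelled steatotic with CC lay just below those labelled normal with Veh. CC raised it by log2 fold changes of 0.95 ± 0.20 (adjusted p = 0.0203) and 1.69 ± 0.21 (adjusted p = 9.20e-04), with a difference of 0.74 (95% confidence interval 0.08 to 1.41, adjusted p = 0.292). The response with the label normal missed the threshold when any 1 of the 4 libraries labelled normal was left out (adjusted p = 0.0607 to 0.108). At Veh *Nqo1* was lower with the label steatotic by -1.76 ± 0.21 (adjusted p = 5.75e-04).

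Per kilobase of exon, the order at Veh with the label normal was *Prdx1* at 1066 CPM per kb, *Gsr* at 151 CPM per kb, *Srxn1* at 86.6 CPM per kb, *Nfe2l2* at 74.3 CPM per kb, *Txnrd1* at 53.8 CPM per kb, *Gclc* at 21.3 CPM per kb, *Keap1* at 18.3 CPM per kb, *Gclm* at 13.4 CPM per kb, *Nqo1* at 2.43 CPM per kb and *Slc7a11* at 0.663 CPM per kb. The lengths are those of all annotated exons merged, which exceed any single transcript, so neighbouring ranks may change with the transcript used. With the label steatotic and CC, *Slc7a11* reached 4.77 CPM per kb and passed *Nqo1* at 2.23 CPM per kb.

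Across the 10 genes, the median log2 fold change with CC was 0.53 with the label normal and 0.67 with the label steatotic, while the median of all tested genes was at 0.00 for both. All 10 values lay above 0 with the label normal and 8 with the label steatotic, where *Gclm* and *Keap1* lay below. Between the livers the median was -0.84 at Veh and -0.62 with CC, against -0.01 and 0.00 for all tested genes. With CC, 7 of the 10 genes were lower with the label steatotic, against 12.9% of all tested genes, and 1 was higher, *Slc7a11*, with 15.9% of all tested genes higher. At Veh the 7 lower genes were *Nfe2l2*, *Gclc*, *Gsr*, *Txnrd1*, *Srxn1*, *Prdx1* and *Nqo1*, and with CC *Gclm* took the place of *Nfe2l2*. The comparisons of CC and of the livers use the same libraries, so a low level at Veh and a large CC response with the label steatotic are not independent. Mean levels with the label steatotic and CC were 0.753 (*Gclc*) to 1.02 (*Srxn1*) times those with the label normal and Veh, except for *Slc7a11* at 7.20 times and *Gclm* at 0.658 times.

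**Figure D3:**
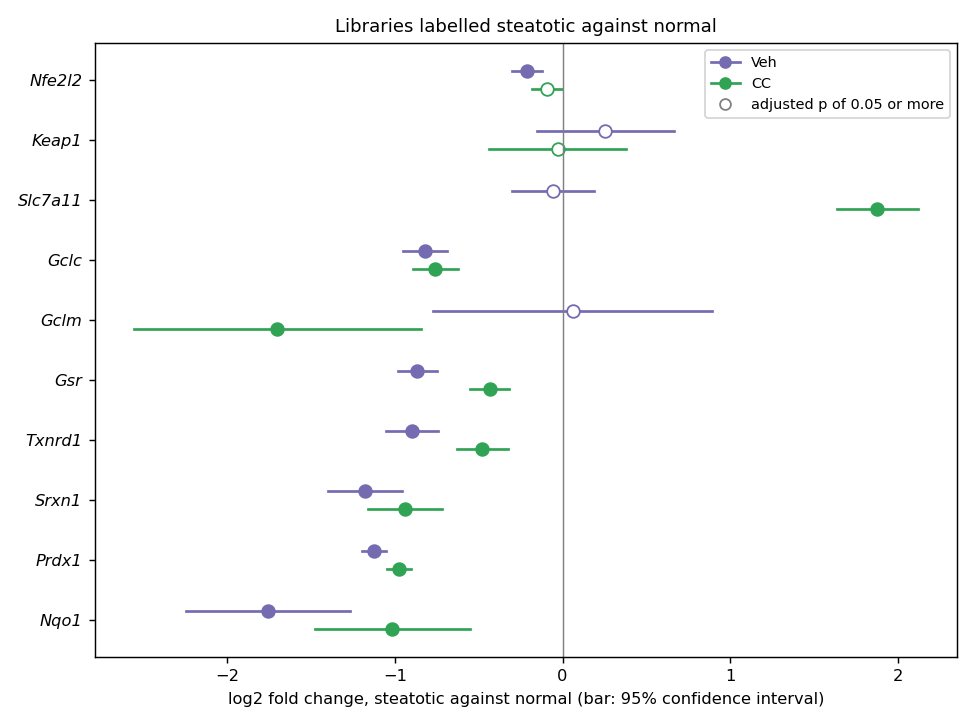
Log2 fold change of the libraries labelled steatotic against those labelled normal for the 10 genes (horizontal axis), with Veh (purple) and with CC (green), with 95% confidence intervals as bars and open circles where the adjusted p-value was 0.05 or more. *Slc7a11* lay at -0.06 with Veh and 1.88 with CC, whereas *Gclc*, *Gsr*, *Txnrd1*, *Srxn1*, *Prdx1* and *Nqo1* lay below 0 with both.

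The other genes of the pathway were 109 genes in 9 lists, of which 103 were tested. With CC, 22 rose and 7 fell with the label normal, where 6.27% and 5.54% of all tested genes did, and 35 rose and 19 fell with the label steatotic, against 12.0% and 10.9%. At Veh, 17 were higher with the label steatotic, a share near the 16.4% of all tested genes, and 45 were lower, against 14.3%. Their median log2 fold changes were 0.07, 0.11 and -0.20, respectively. The counts of the single lists below stand against the same shares of all tested genes, and in short lists a few calls lie near them.

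Of 10 other regulators of NRF2, 4 rose and none fell with CC and the label normal, and 4 rose and 1 fell with the label steatotic. *Sqstm1*, whose product p62 binds KEAP1 and carries cargo into autophagosomes, rose by log2 fold changes of 0.68 (adjusted p = 3.65e-05) and 0.99 (adjusted p = 2.59e-06), which differed by 0.32 (adjusted p = 0.0122). *Maff*, a small MAF protein, rose by 1.15 (adjusted p = 6.47e-04) and 1.87 (adjusted p = 2.73e-05). *Bach1*, a repressor that competes with NRF2 at its sites, fell by 0.45 on the log2 scale with CC and the label steatotic (adjusted p = 4.76e-04) and was higher with that label at Veh by 0.29 (adjusted p = 0.00357). At Veh, 1 of the 10 was higher and 3 were lower with the label steatotic, among them *Sqstm1* at -0.80 (adjusted p = 2.98e-06) and *Maff* at -1.07 (adjusted p = 3.17e-04).

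Of 18 tested targets in heme and iron handling, export and detoxification, 4 rose and none fell with CC and the label normal, and 9 rose and 2 fell with the label steatotic. *Hmox1*, the heme oxygenase that NRF2 and BACH1 both control, rose by log2 fold changes of 0.56 (adjusted p = 1.15e-04) and 0.37 (adjusted p = 2.99e-04), which differed by -0.19 (adjusted p = 0.119). *Akr1b8*, an aldo-keto reductase, rose by 1.03 with the label steatotic (adjusted p = 2.52e-05), *Abcc1*, an exporter of glutathione conjugates, by 0.71 (adjusted p = 6.03e-05) and *Slc48a1*, a heme transporter of lysosomes, by 0.39 (adjusted p = 2.81e-04). With the label normal they rose by 0.69, 0.46 and 0.29 (adjusted p = 4.59e-04, 0.00115 and 0.00294). For none of the 18 did the difference between the CC responses pass the test. At Veh, 3 of the 18 were higher and 10 lower with the label steatotic, led by *Akr1b8* at -2.27 (adjusted p = 6.53e-07), with *Hmox1* at -0.66 (adjusted p = 1.22e-05) and *Slc48a1* at -0.59 (adjusted p = 2.58e-05).

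The 8 tested genes of NADPH supply, the reductant of both branches, split with CC, 1 rising and 1 falling with the label normal and 3 rising and 2 falling with the label steatotic. *Pgd* and *G6pdx*, dehydrogenases of the pentose phosphate pathway, rose by log2 fold changes of 0.38 (adjusted p = 3.65e-04) and 0.21 (adjusted p = 0.00374) with the label steatotic, and mitochondrial *Idh2* fell by 0.70 on the log2 scale (adjusted p = 3.05e-04). With the label normal these 3 values were 0.33, 0.13 and -0.44 (adjusted p = 0.00183, 0.0524 and 0.00636). At Veh, 5 of the 8 were lower with the label steatotic and none higher, including *Taldo1* at -0.80 (adjusted p = 3.19e-05), *Pgd* at -0.63 (adjusted p = 2.26e-05) and *G6pdx* at -0.50 (adjusted p = 3.28e-05).

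Among 17 tested genes of other glutathione metabolism, 2 rose and 2 fell with CC and the label normal, 3 rose and 3 fell with the label steatotic, and 7 were lower with the label steatotic at Veh with none higher. *Oplah*, which recovers glutamate from oxoproline, fell by 1.21 on the log2 scale with CC and the label steatotic (adjusted p = 0.00102), and *Hagh*, a glyoxalase, fell by 0.46 on the log2 scale (adjusted p = 0.0169). With the label normal their log2 fold changes were -0.84 and -0.53 (adjusted p = 0.0107 and 0.0170). At Veh the lowest adjusted p-values were those of *Gpx4*, a lipid hydroperoxide peroxidase, at -0.58 (adjusted p = 7.49e-05), *Chac1*, which degrades glutathione, at -1.20 (adjusted p = 3.33e-04), and *Oplah* at -0.60 (adjusted p = 0.0186). Of 14 tested glutathione transferases none changed with CC and the label normal, and 1 rose (*Gstt2*, 0.56, adjusted p = 0.0129) and 1 fell (*Mgst3*, -0.48, adjusted p = 0.0420) with the label steatotic. Neither count exceeded the share of all tested genes there, at 12.0% rising and 10.9% falling. At Veh 3 transferases were higher with the label steatotic and 6 lower, among them *Gstt1* at 3.16 (adjusted p = 4.99e-05), *Gsto1* at -0.82 (adjusted p = 7.15e-05) and *Gstm5* at -1.20 (adjusted p = 0.00150).

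Of 15 other thioredoxin and peroxiredoxin genes, 2 rose and 2 fell with CC and the label normal, and 4 rose and 4 fell with the label steatotic. *Txn1*, thioredoxin itself, had log2 fold changes of -0.06 with the label normal (adjusted p = 0.532) and 0.20 with the label steatotic (adjusted p = 0.0196). *Sesn1*, a sestrin, fell by 1.88 on the log2 scale with CC and the label steatotic (adjusted p = 9.32e-06), *Prdx2* fell by 0.32 on the log2 scale (adjusted p = 0.00242), and *Msrb1*, a methionine sulfoxide reductase, rose by 0.29 (adjusted p = 0.00140). With the label normal these values were -1.14, -0.30 and -0.07 (adjusted p = 2.62e-04, 0.00621 and 0.345). The responses of *Sesn1* and *Msrb1* differed between the labels by -0.74 and 0.36 (adjusted p = 0.0236 and 0.0156). At Veh, 4 were higher and 5 lower with the label steatotic, with *Sesn1* at 1.38 (adjusted p = 2.51e-05), *Msrb1* at -0.52 (adjusted p = 4.99e-05) and *Txnrd3* at -1.33 (adjusted p = 0.00723).

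Of the 3 tested superoxide dismutases and catalase, 1 rose with CC and the label normal and 2 rose and 1 fell with the label steatotic. *Sod2*, the mitochondrial dismutase, rose by 1.72 with the label steatotic (adjusted p = 3.27e-04), against 0.40 with the label normal (adjusted p = 0.106), and the responses differed by 1.32 (adjusted p = 0.0190). *Cat*, catalase, rose by 0.50 with the label steatotic (adjusted p = 4.05e-05) and *Sod1* fell by 0.25 on the log2 scale (adjusted p = 0.0143). With the label normal *Cat* rose by 0.42 (adjusted p = 2.50e-04) and *Sod1* was at -0.10 (adjusted p = 0.319). All 3 were lower with the label steatotic at Veh, at -1.78 for *Cat* (adjusted p = 1.28e-07), -0.92 for *Sod2* (adjusted p = 0.00293) and -0.79 for *Sod1* (adjusted p = 3.78e-05). In contrast, 3 of the 6 subunits of the phagocyte NADPH oxidase were higher at Veh with the label steatotic and 1 was lower, with *Rac2* at 0.78 (adjusted p = 4.93e-05), *Ncf4* at 0.42 (adjusted p = 1.97e-04) and *Cybb* at -0.56 (adjusted p = 1.76e-04). With CC, 2 rose and 2 fell with the label normal and 3 rose and 2 fell with the label steatotic. With CC and the label steatotic *Ncf4* and *Cybb* rose by 0.52 (adjusted p = 9.56e-05) and 0.57 (adjusted p = 2.35e-04), and *Ncf1* fell by 0.57 on the log2 scale (adjusted p = 6.75e-04). The same genes had log2 fold changes of 0.33, 0.30 and -0.74 with the label normal (adjusted p = 0.00209, 0.0114 and 4.87e-04).

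*Slc7a11* is also a target of ATF4, a factor of the amino acid and stress response. Of 12 tested genes of that response and of cysteine supply, 6 rose and none fell with CC and the label normal, and 6 rose and 3 fell with the label steatotic. *Ddit3*, *Atf3* and *Trib3* rose by log2 fold changes of 1.03 (adjusted p = 5.41e-06), 1.02 (adjusted p = 8.06e-06) and 0.78 (adjusted p = 5.49e-05) with the label steatotic. Their responses with the label normal were 0.70, 0.80 and 0.57, and of the 3 the difference passed the test for *Ddit3* (0.33, adjusted p = 0.0336). *Asns*, asparagine synthetase, rose by 0.79 with the label steatotic (adjusted p = 2.50e-04) and by 0.58 with the label normal (adjusted p = 0.00250). *Cth* (-2.71), *Slc7a5* (-0.34) and *Shmt2* (-0.30) fell with the label steatotic (adjusted p = 0.0320, 0.0192 and 0.0333). *Atf4* itself passed the test with neither label, at -0.23 and 0.53 for normal and steatotic (adjusted p = 0.806 and 0.474). The part of ATF4 in the rise of *Slc7a11* was not tested. At Veh, 3 of the 12 were higher and 5 lower with the label steatotic, with *Nupr1* at 1.45 (adjusted p = 6.39e-05), *Atf3* at -0.43 (adjusted p = 4.13e-04) and *Asns* at -0.73 (adjusted p = 2.92e-04).

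**Figure D4:**
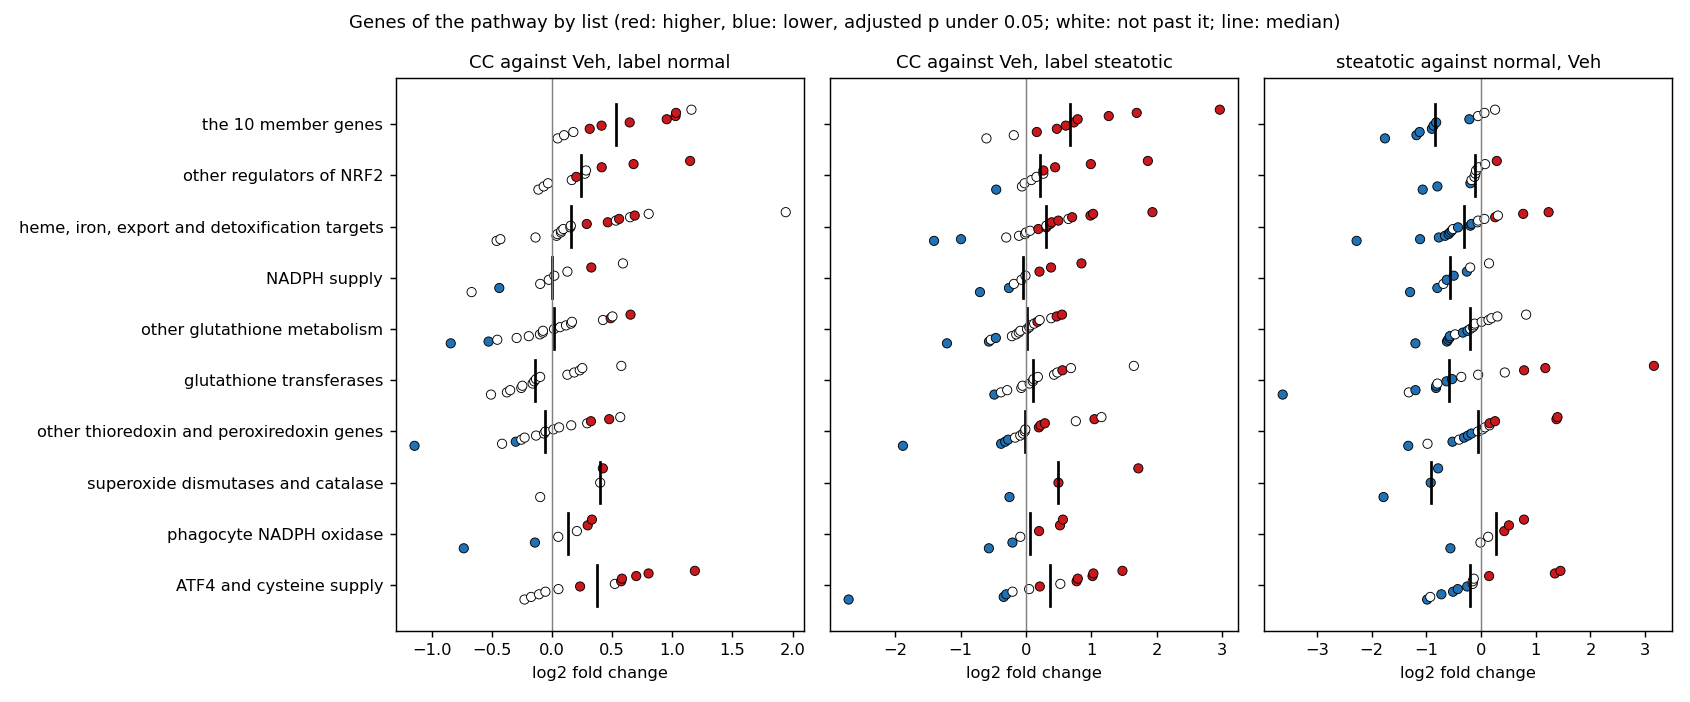
Log2 fold changes of the 10 genes and of the tested genes of 9 other lists (rows), for CC against Veh with the label normal, with the label steatotic, and for steatotic against normal at Veh. Each point is 1 gene, red where higher and blue where lower at an adjusted p-value under 0.05 and white otherwise, and the black lines are medians. The medians of the 10 genes lay at 0.53, 0.67 and -0.84.

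Over the 8 libraries, the profiles of *Nfe2l2*, *Gclc*, *Gsr*, *Txnrd1*, *Srxn1* and *Prdx1* in log2 CPM resembled each other, with Pearson's r from 0.93 to 0.99 between pairs, whereas *Gclm* reached 0.35 to 0.60 and *Slc7a11* 0.09 to 0.38 with these 6 genes, and *Keap1* lay at -0.44 to -0.35. *Nqo1* was below the level of expression asked for here (a mean log2 CPM above 3) and was not included. These values describe 4 groups of 2 libraries and share the library totals. Among 9023 genes, the most alike in profile to *Nfe2l2* were *Klhl12* (r = 0.994), *Tra2b* (0.990) and *Creld2* (0.989). The most alike to *Slc7a11* were *Csf2rb2* (r = 0.995), *Rybp* (0.992) and *Tax1bp1* (0.992), and to *Srxn1* they were *Pgk1* (r = 0.997), *Bid* (0.996) and *Gtf2h1* (0.995).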

How the data were processed

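The 8 directional poly(A) libraries were read as pairs of 150 bases. Read trimming by the authors used fastp, alignment used HISAT2 on mm10 and quantification used StringTie (versions and strand setting are not given in the sources used here). The authors deposited estimated counts (expected counts) per gene, not normalized. These are whole numbers and were not rounded. An excess of multiples of 4 among values from 1 to 20 points to about 4 counts per fragment, so counts divided by 4 were an alternative. On that scale a floor of 3 fragments per library equals 0.161 to 0.205 CPM, for counting error only.

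The test used all genes reaching 0.5 CPM in 1 or more libraries and edgeR 4.0.16 in R 4.3.3 (TMM, glmQLFit with robust estimation, glmQLFTest, default prior count) in 1 model with 4 group means, with Benjamini-Hochberg adjustment over all 15202 genes. The standard error is the log2 fold change divided by the root of F. The paper names no test for these counts. Alternatives were DESeq2 1.42.0, edgeR with the size factors of DESeq2, scaling by library size alone, other filters, the replicate block, the libraries of a comparison alone, a log2 fold change over 1 and leaving out each library. Plots were made in matplotlib 3.10.9.

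The 10 genes, the other lists and the cell type markers were chosen with earlier results of these data known. Besides the 10 genes, the rule named up to 3 genes per list with the lowest adjusted p-value among those passing the test with CC and the label steatotic and up to 3 at Veh between the labels, *Hmox1*, *Txn1* and *Sqstm1* in any case, the 3 genes most correlated with *Nfe2l2*, *Slc7a11* and *Srxn1* at a mean log2 CPM above 3, and *Mc4r*. *Nnt*, listed under 2 tested identifiers, was left out of its list. Positions are from GENCODE release M21 for GRCm38 and promoter windows from RefSeq, which has none for *Gclc* and *Gsr* in the table used.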

Additional observations from a re-analysis of the deposited data

Results flagged for a closer look

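The response of *Slc7a11* to CC differed between the labels by 1.93 on the log2 scale, as a tested difference (edgeR, adjusted p = 0.00153), with all 4 libraries with CC above all 4 with Veh. The response of *Gsr* differed by 0.43 on the log2 scale (edgeR, adjusted p = 0.0189), again with all libraries with CC above those with Veh of the same label, but the adjusted p-value rose to between 0.0566 and 0.0768 when any 1 of the 6 libraries other than those labelled steatotic with CC was left out. The genotype, the diet and the cells in each preparation cannot be told apart as sources of either difference.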

How the results depend on the processing

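The number of the 10 genes that passed the test stayed within 1.5 times of 6, 8, 7 and 8 (CC with the label normal, CC with the label steatotic, the livers at Veh and the livers with CC) under every setting except 1. With a log2 fold change over 1 asked as well, 2, 3, 3 and 3 genes were left, and 1 of the 2 whose CC responses differed. For that difference DESeq2 gave 4 genes, 3 higher and 1 lower, and leaving out 1 library gave 1 to 3. Leaving out 1 library gave 4 to 7, 7 to 9, 7 and 7 to 8 genes for the others. Libraries with the same number did not deviate together (r from -0.032 to 0.043 between groups, over 9023 genes), and the fit with the replicate number as a block gave 6, 8, 2, 7 and 8 genes, the numbers of the fit without it. Of 790 alternative values of single genes, 749 kept their direction and side of the threshold, 13 passed it in addition, 21 no longer passed it and 7 changed sign. None of the 7 belonged to a value that passed the test. They were *Keap1* with CC and the label steatotic at 0.000799 (range -0.39 to 0.000799, sign changed without the first library labelled steatotic with Veh), the difference of *Gclc* at -0.021 (range -0.021 to 0.14, without the same library), *Slc7a11* between the livers at Veh at 0.056 and 0.057 (range -0.18 to 0.057, without the second library labelled normal with Veh and without the second labelled steatotic with Veh), *Gclm* there at -0.13 (range -0.13 to 0.28, without the first labelled normal with Veh), and *Keap1* between the livers with CC at 0.02 (without the second labelled normal with CC) and 0.15 (without the first labelled steatotic with CC, range -0.24 to 0.15). The ranges are over leaving out each library in turn. With 1 library left out, the lone library of a group was assumed to vary like the other groups. The cause of these changes was not tested. With 2 libraries per group, small changes such as that of *Nfe2l2* rest on the spread pooled over all groups.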
